A study of Mus musculus with 12 samples.

Results

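The 10 genes described here encode matrix proteins other than collagens and surface proteins of fibroblasts: Postn, Sparc, Tnc, Thbs1, Fn1, Lum, Dcn, Fap, Thy1 and Pdgfra. They were listed by symbol, with earlier results of these data known. All 10 are present among the 32416 gene symbols of the expression table, and each was read in all 12 libraries. The study measured bulk RNA of subcutaneous tumours that B16 melanoma cells formed in C57BL/6 mice. The question of the design was how over-expression of Aoah in the tumour changes it under checkpoint antibodies. Aoah encodes acyloxyacyl hydrolase, a lipase that removes acyl chains from bacterial lipopolysaccharide.

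Tumours of the line B16mhgp100 carried Aoah (n = 4) or the empty Vector (n = 4), as did tumours of the line B16F10 (n = 2 each). All B16mhgp100 mice received anti-PD1 from day 10, and all B16F10 mice anti-PD1 with anti-CTLA4 from day 6. Each antibody was given at 200 µg per dose, in 4 doses at 2 a week, and harvest followed 1 day after the final dose. Every tumour was therefore treated, and no untreated tumours were analysed here. Cell line, antibodies and first day change together between the models, so their contributions cannot be told apart. The samples are bulk tumours, in which RNA of the melanoma cells and of host cells is mixed. The labels do not state that each tumour is from its own mouse, and p-values therefore reflect the spread between the tumours sequenced, which may be technical.

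Fibroblasts build the matrix of a tumour around fibrils of collagen. Fibronectin links fibrils to integrins on cells, and small leucine-rich proteoglycans such as decorin and lumican bind the fibrils and set their spacing. Matricellular proteins such as periostin, tenascin-C, thrombospondin-1 and SPARC are secreted into the matrix but act mainly on cells, growth factors and matrix assembly, and they are known for their high levels in wounds and tumours. Fap, Thy1 and Pdgfra are used as surface markers of fibroblasts, although Thy1 is also a well known surface protein of mouse T cells, and melanoma cells can make some of these proteins themselves. In bulk tumours fewer cells of a type and less RNA per cell cannot be told apart.

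Values are TPM (transcript abundances) which are scaled for gene length and library total. Between 13775 and 14791 symbols reached 1 TPM in a library, and TPM keeps no read depth. Aoah, the check of the labels, stood at 17.9, 22.5, 14.0 and 3.91 TPM in B16mhgp100 Aoah tumours 1 to 4, against 7.58, 0.89, 2.43 and 1.57 TPM in Vector tumours 1 to 4. In B16F10 it stood at 21.8 and 23.7 TPM in Aoah tumours, against 1.49 and 0.75 TPM in Vector tumours. The library labelled Aoah 4 of B16mhgp100 lay within the range of its Vector tumours. Its log2 values correlated with those of the other libraries at r between 0.892 and 0.907 across genes, against at least 0.952 among the others. It alone held 600.09 TPM of the keratin gene Krt14, which did not exceed 6.23 TPM elsewhere. Vector tumour 2 of B16F10 had 10.4% of its TPM in mitochondrial genes, against at most 6.38% elsewhere. For several of the 10 genes and lists, values without these libraries are given beside the results.

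Upstream sequence is shown for Postn and Sparc, because these genes carry the widest B16F10 difference and the called difference between the models. The RefSeq table used, of build GRCm38.p6, holds upstream windows for 4 of the 10 genes, whereas the deposited values were made with mm39. The Postn window lies at chr3:54360857-54361106 on the + strand and ends at the base before a listed start site. Capitals mark TATAAA, which begins 26 bases before that start.
Postn: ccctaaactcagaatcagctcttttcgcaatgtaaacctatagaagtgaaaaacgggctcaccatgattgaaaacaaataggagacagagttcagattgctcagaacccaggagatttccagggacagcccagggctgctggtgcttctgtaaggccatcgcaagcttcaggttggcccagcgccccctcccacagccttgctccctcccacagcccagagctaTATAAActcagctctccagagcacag
The Sparc window lies at chr11:55420081-55420330 on the - strand and is given in the direction of the gene. No capitals appear in it because none of the 3 motifs searched was found.
Sparc: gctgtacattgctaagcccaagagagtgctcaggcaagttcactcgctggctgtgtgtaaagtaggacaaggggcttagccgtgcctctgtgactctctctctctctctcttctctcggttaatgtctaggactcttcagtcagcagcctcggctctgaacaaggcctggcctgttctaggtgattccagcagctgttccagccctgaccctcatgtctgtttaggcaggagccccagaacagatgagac

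The 3 motifs were searched on both strands in the 250 bases upstream of each listed start. TATAAA, the core of a TATA box, was present in 12.4% of 32851 upstream windows of all genes. GGGCGG, bound by Sp1, was present in 32.7%, and TGANTCA, bound by AP-1, in 6.75%. Besides the Postn window shown, both Tnc windows held TATAAA and GGGCGG, each at least 126 bases from the start. Only exact matches were counted, so the similar stretch tatataag near the end of a Tnc window was not. A second Postn window and the Pdgfra window held none of the 3. The Postn window was 52.0% G and C and the Sparc window 54.0%, against a median of 52.4% over all windows.

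Sparc was by far the most abundant of the 10 genes, with a mean of 1060 TPM over the 12 tumours, and it ranked 136 among all symbols. Fn1 followed with 123 TPM and Dcn with 55.5 TPM. Thy1, Tnc, Postn and Thbs1 had means of 39.9, 30.2, 27.6 and 21.8 TPM. Lum averaged 6.39 TPM, Pdgfra 3.75 TPM and Fap 1.42 TPM, the lowest of the set. Neighbours in this order overlapped widely across tumours, except that the lowest Sparc value of 389 TPM exceeded the highest Fn1 value of 331 TPM. Sparc made up between 67.0% and 91.0% of the summed TPM of the 10 genes in a library, so a sum over them describes mainly Sparc.

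The genes also differed in how widely they ranged. Dcn, which encodes the proteoglycan decorin, had a highest value 79.1 times its lowest, and Lum, which encodes lumican, 52.6 times. Postn ranged 25.3-fold, Pdgfra 23.1-fold, Fap 19.0-fold, Tnc 16.8-fold and Thy1 10.2-fold. The narrowest were Fn1 at 7.48-fold, Thbs1 at 6.41-fold and Sparc at 4.69-fold. These ratios depend on the lowest value, which was only 0.22 TPM for Fap, 0.47 TPM for Lum and 0.70 TPM for Pdgfra. On the log2(TPM + 1) scale used for the tests, Fap had the smallest SD, 0.55, below Sparc at 0.70, and Dcn the largest, 1.89. Within B16mhgp100, Aoah tumour 2 had the highest value for 5 genes (Sparc, Fn1, Lum, Fap and Pdgfra), and Aoah tumour 3 the lowest for 5 (Postn, Tnc, Lum, Dcn and Pdgfra). Both extremes for Lum and Pdgfra were therefore found inside the Aoah group.

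**Figure D1:**
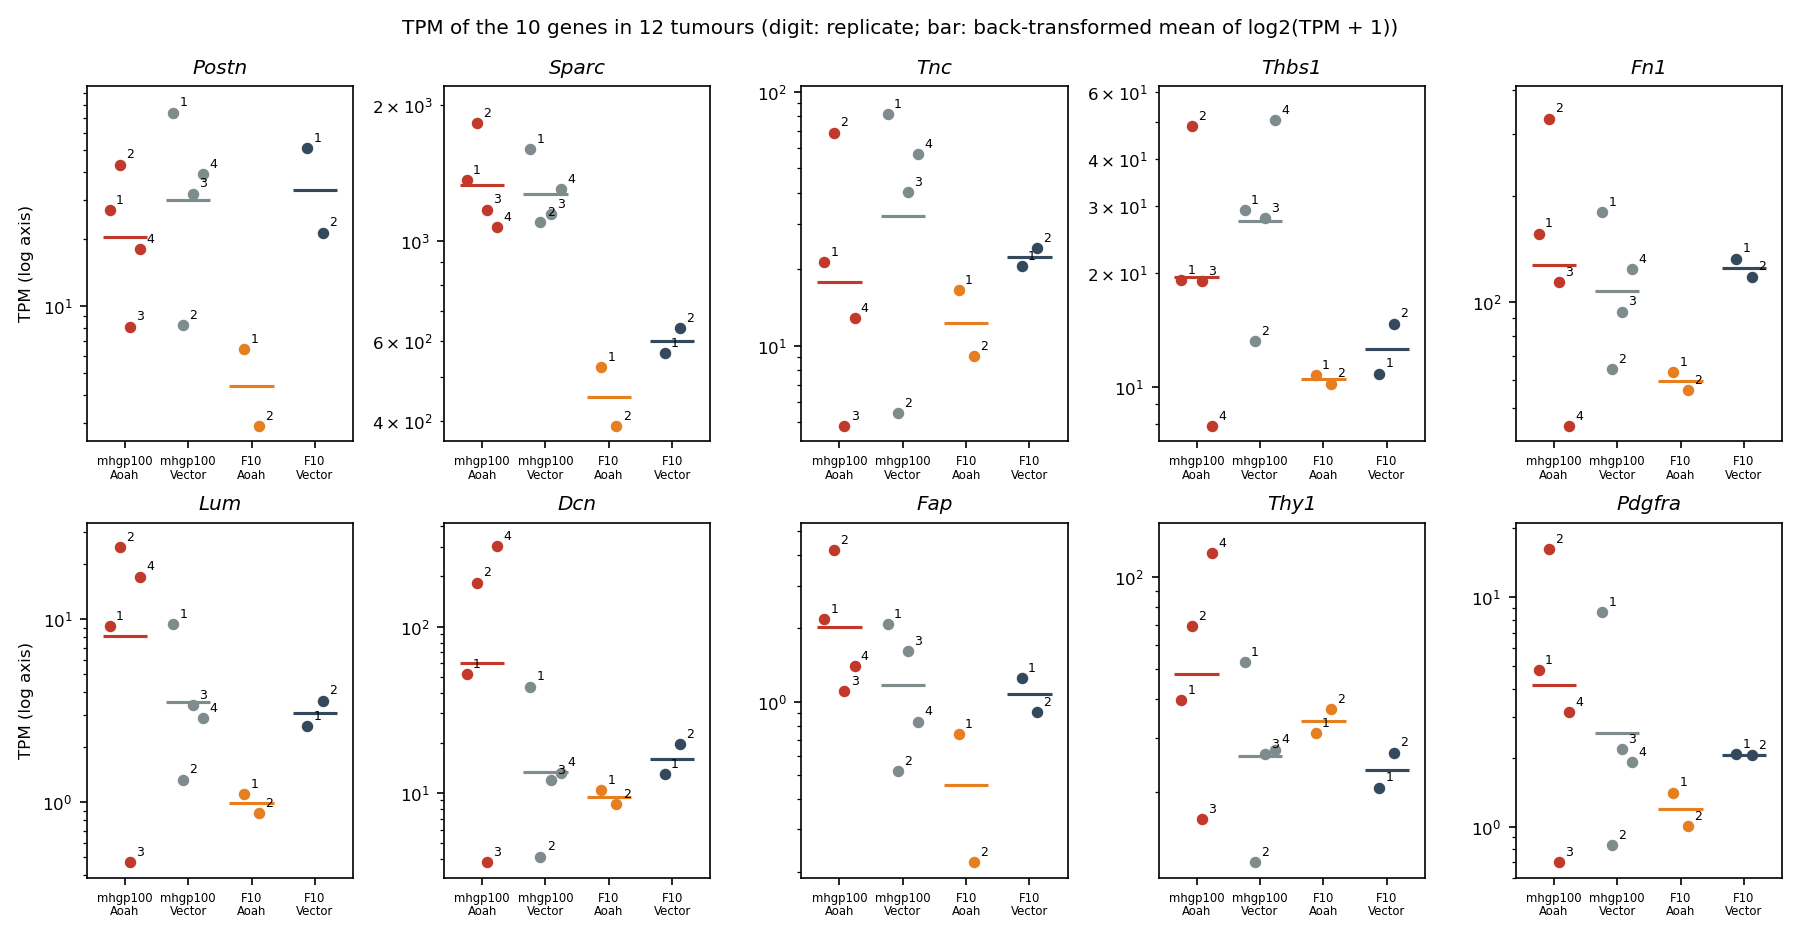
TPM of each of the 10 genes in each tumour, on a log axis per panel, with Aoah left of Vector in each model; the digit is the replicate number and the bar the back-transformed group mean of log2(TPM + 1). The 4 B16mhgp100 Aoah tumours spread from 3.83 to 303 TPM for Dcn, whereas Sparc separates the models, with every B16mhgp100 tumour above every B16F10 tumour.

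In B16mhgp100, the comparison of Aoah with Vector tumours gave no call for any of the 10 genes. The proteoglycan genes and Thy1 had the highest positive differences and Tnc the lowest, and the groups overlapped for every gene. With limma on log2(TPM + 1) and Benjamini-Hochberg adjustment, 0 of 14228 genes tested, 0%, passed an adjusted p of 0.05, and 350 had an unadjusted p under 0.05. The authors' deposited table of their own test has 3 of 20534 genes past an adjusted p of 0.05, 0.0146%, and none of the 10 genes among them. No gene of the set had groups that did not overlap, where 5.88% of all genes tested did.

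Dcn, the collagen-binding proteoglycan decorin, had 51.6, 183.5, 3.83 and 303 TPM in Aoah tumours 1 to 4, against 43.6, 4.13, 11.9 and 13.2 TPM in Vector tumours 1 to 4. Aoah tumours 2 and 4 were the highest of the model and Aoah tumour 3 the lowest. The log2 difference was 2.10 with an SE of 1.23 and a 95% interval of -0.68 to 4.88 (limma, Benjamini-Hochberg adjusted p = 0.694, n = 4 each). An exact 2-sided permutation test of this gene gave p = 0.200, where the smallest possible p was 0.0286. Without the library labelled Aoah 4 the log2 difference was 1.33, and without Aoah tumour 3 it was 3.32. The authors' deposited table gives a log2 fold change of 3.42 for Dcn with an adjusted p of 0.564.

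Lum, which encodes the related proteoglycan lumican, had 9.15, 24.7, 0.47 and 17.1 TPM in Aoah tumours, against 9.44, 1.33, 3.40 and 2.89 TPM in Vector tumours. As for Dcn, Aoah tumour 3 was the lowest of the model, and Aoah tumours 2 and 4 were the highest. The log2 difference was 1.02 with an SE of 0.86 and a 95% interval of -0.93 to 2.97, 0.69 without the library labelled Aoah 4, 0.52 without Aoah tumour 2 and 1.89 without Aoah tumour 3.

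Among the fibroblast surface genes, Thy1 had 39.7, 69.1, 16.3 and 119.7 TPM in Aoah tumours, against 52.8, 11.8, 26.5 and 27.4 TPM in Vector tumours. Its highest value was in the library labelled Aoah 4, and its log2 difference of 0.87 (SE 0.62) was 0.44 without that library and 1.37 without Aoah tumour 3. Pdgfra, a receptor for platelet-derived growth factors, had 4.83, 16.2, 0.70 and 3.15 TPM in Aoah tumours, against 8.65, 0.83, 2.18 and 1.91 TPM in Vector tumours. Its log2 difference of 0.53 (SE 0.72) was -0.05 without Aoah tumour 2, so 1 tumour set its sign. Fap, which encodes the serine protease fibroblast activation protein, was low throughout, at 2.18, 4.19, 1.11 and 1.40 TPM in Aoah tumours and 2.08, 0.52, 1.62 and 0.83 TPM in Vector tumours. Its log2 difference of 0.47 (SE 0.34) was 0.21 without Aoah tumour 2.

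Fn1, the gene of the cell-adhesive glycoprotein fibronectin, had 156, 331, 114 and 44.3 TPM in Aoah tumours, against 179.5, 64.3, 93.7 and 123.7 TPM in Vector tumours. The Aoah group held both the highest and the lowest value. The log2 difference was 0.24 (SE 0.57), 0.74 without the library labelled Aoah 4 and -0.22 without Aoah tumour 2. Sparc, a collagen-binding matricellular glycoprotein, stood at 1368, 1824, 1174 and 1073 TPM in Aoah tumours, against 1597, 1104, 1148 and 1305 TPM in Vector tumours. The groups covered almost the same range, and the log2 difference was 0.06 with a 95% interval of -0.41 to 0.54.

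The 3 genes with a negative log2 difference in B16mhgp100 were all matricellular, and each difference was smaller than its SE. Other matricellular genes, of a list described below, did not share this direction. Of 16 tested in B16mhgp100 11 were above 0, with a median of 0.32, against -0.20 over all genes tested. Without the library labelled Aoah 4 the list median was 0.18. Tnc, which encodes the anti-adhesive glycoprotein tenascin-C, had 21.4, 68.9, 4.84 and 12.9 TPM in Aoah tumours, against 81.5, 5.43, 40.2 and 56.7 TPM in Vector tumours. Postn, which encodes the integrin ligand periostin, had 27.0, 43.1, 8.09 and 18.1 TPM in Aoah tumours, against 73.7, 8.21, 32.0 and 39.2 TPM in Vector tumours. Aoah tumour 3 and Vector tumour 2 were low for both genes, and Vector tumour 1 was the highest for both. The log2 difference was -0.83 for Tnc (SE 0.93) and -0.52 for Postn (SE 0.67). For Tnc it was -1.62 without Vector tumour 2 and -0.26 without Aoah tumour 3. For Postn it was -1.10 without Vector tumour 2, -0.11 without Aoah tumour 3 and -0.097 without Vector tumour 1.
Thbs1, which encodes thrombospondin-1, an activator of latent TGF-beta and an inhibitor of vessel growth, had 19.1, 48.7, 19.0 and 7.88 TPM in Aoah tumours, against 29.3, 13.2, 27.9 and 50.5 TPM in Vector tumours. Its log2 difference of -0.46 (SE 0.54) was -0.06 without the library labelled Aoah 4, which had its lowest value, and -0.89 without Aoah tumour 2.

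The median log2 difference of the 10 genes was 0.36, and 7 of 10 were above 0. The median over all 14228 genes was -0.20, with 9966 of them below 0, and median-of-ratios scaling moved it to 0.01. Under that scaling the signs of the 10 differences stayed as given, with Postn at -0.28, Sparc at 0.31 and Dcn at 2.34. Adjusted p-values (limma, Benjamini-Hochberg) lay between 0.694 and 0.886, and exact permutation p-values between 0.200 and 0.771 over 10 tests, unadjusted. The 95% intervals covered 0 for all 10 genes, and were widest for Dcn and narrowest for Sparc.

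**Figure D2:**
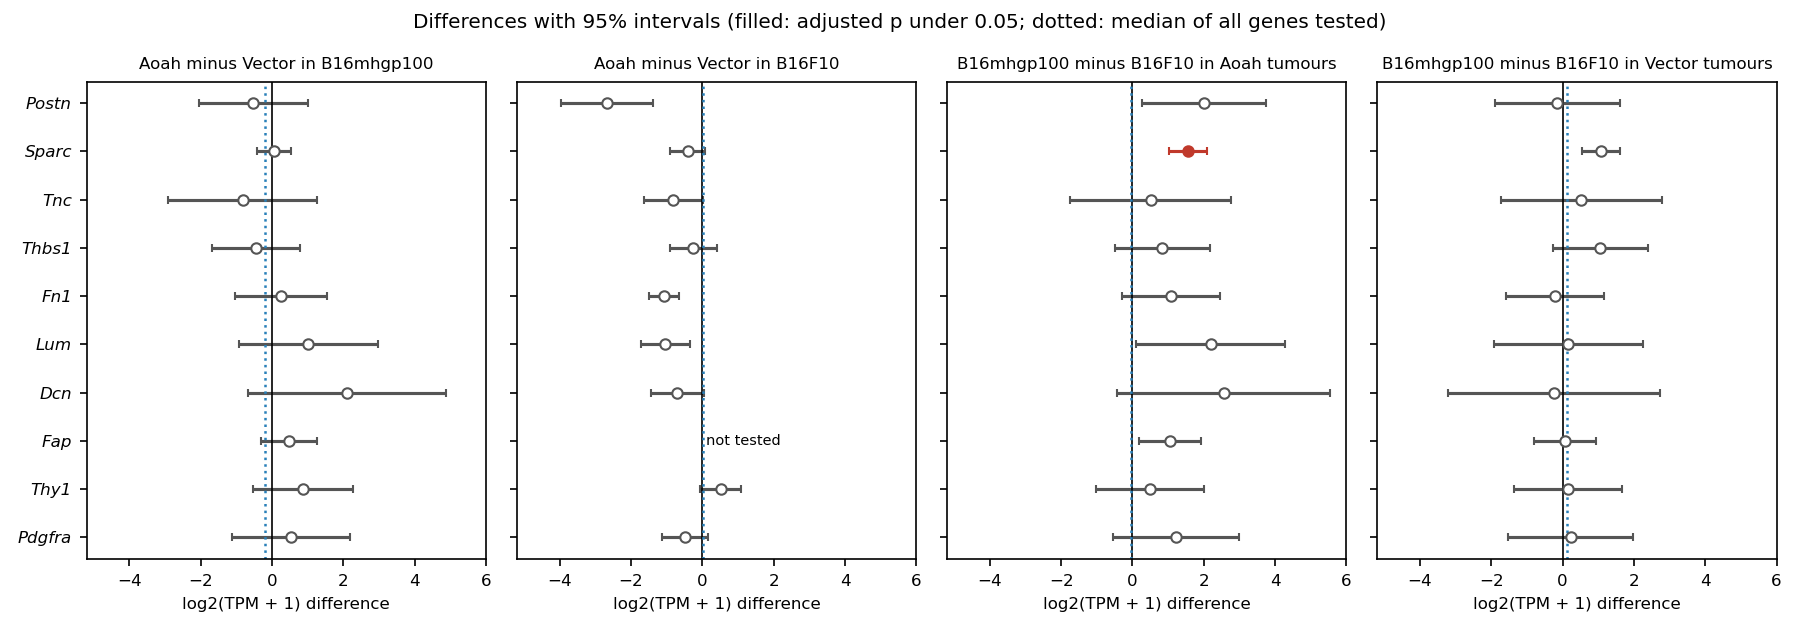
Log2(TPM + 1) differences of each gene with 95% limma intervals in the 4 comparisons; the filled symbol has an adjusted p under 0.05 and the dotted line is the median of all genes tested. In B16mhgp100 every interval covers 0, in B16F10 those of Postn, Fn1 and Lum lie below 0 without passing adjustment, and Sparc passed in the comparison of the models in Aoah tumours.

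In B16F10, Aoah tumours had less RNA of 8 of the 9 genes tested than Vector tumours by their values, with Postn and Fn1 furthest apart relative to their spread, and more of Thy1. None passed the adjusted threshold with limma, whereas Postn and Fn1 passed in the authors' deposited table. With limma and Benjamini-Hochberg adjustment, 50 of 14533 genes passed, 0.344%, of which 42 were higher and 8 lower, 0.055%, and 0 passed when any 1 of the 4 tumours was left out. In the authors' deposited table, 1222 of 14328 genes had an adjusted p under 0.05, 8.53%, and 556 of them, 3.88%, were lower in Aoah tumours. The groups of 2 tumours did not overlap for the 9 genes tested, where 50.5% of all genes tested did not overlap. For the 8 genes lower in both Aoah tumours the matching share of all genes was 22.6%, and for Thy1, higher in both, it was 28%. An exact permutation test of 2 against 2 tumours cannot go below p = 0.333, so none was run.

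Postn had 6.40 and 2.91 TPM in B16F10 Aoah tumours, against 51.1 and 21.4 TPM in Vector tumours. Both Aoah tumours were well below both Vector tumours, which themselves differed. This gave a log2 difference of -2.67 with an SE of 0.51 and a 95% interval of -3.95 to -1.38, a 6.34-fold difference on the log2(TPM + 1) scale (limma, Benjamini-Hochberg adjusted p = 0.105, n = 2 each). The authors' deposited table gives a log2 fold change of -2.92 with an SE of 0.438 and an adjusted p of 4.80e-09 for Postn (ENSMUSG00000027750). Without Vector tumour 2, the one with more mitochondrial RNA, the log2 difference was -3.28. Without Vector tumour 1, the one with the highest Postn value, it was -2.05.

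Fn1 had 62.9 and 56.1 TPM in B16F10 Aoah tumours, against 132.7 and 117.8 TPM in Vector tumours. Each group was tight, and they did not overlap. On the log2 scale the difference was -1.06 with an SE of 0.17 and a 95% interval of -1.48 to -0.64, a 2.09-fold difference (limma, Benjamini-Hochberg adjusted p = 0.0750, n = 2 each). The authors' deposited table gives -1.08 with an adjusted p of 1.55e-05 for Fn1 (ENSMUSG00000026193). Postn and Fn1 thus differ in call between the fit of TPM and the authors' table, while the size of the difference is close in both.

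Lum had 1.11 and 0.87 TPM in B16F10 Aoah tumours, against 2.60 and 3.59 TPM in Vector tumours. This gave a log2 difference of -1.03 (SE 0.27, limma with Benjamini-Hochberg adjusted p = 0.153), at levels near the filter of 1 TPM. Dcn had 10.4 and 8.58 TPM in Aoah tumours, against 12.9 and 19.6 TPM in Vector tumours, a log2 difference of -0.70 (SE 0.29). Neither proteoglycan gene overlapped between the groups, and neither passed in either test. Without Vector tumour 2 the Dcn difference was -0.41.

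Of the other matricellular genes in B16F10, Tnc had 16.5 and 9.07 TPM in Aoah tumours, against 20.5 and 24.2 TPM in Vector tumours, a log2 difference of -0.81 (SE 0.33). Sparc had 525 and 389 TPM in Aoah tumours, against 565 and 642 TPM in Vector tumours, a log2 difference of -0.41 (SE 0.19). Thbs1 had 10.7 and 10.2 TPM in Aoah tumours, against 10.8 and 14.7 TPM in Vector tumours, a log2 difference of -0.25 (SE 0.26). Aoah tumour 2 was the lowest for these 3 genes, and for Thbs1 Aoah tumour 1, at 10.73 TPM, lay close to Vector tumour 1, at 10.83 TPM. Without Vector tumour 2 the Thbs1 difference was -0.05.

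Pdgfra had 1.41 and 1.01 TPM in B16F10 Aoah tumours, against 2.08 and 2.05 TPM in Vector tumours, a log2 difference of -0.48 (SE 0.26). Fap had 0.74 and 0.22 TPM in Aoah tumours, against 1.25 and 0.91 TPM in Vector tumours, and was too low to be tested. Thy1, shared by fibroblasts and T cells, was higher by value, with 31.1 and 37.2 TPM in Aoah tumours, against 20.6 and 26.8 TPM in Vector tumours. Its log2 difference was 0.51 (SE 0.23, limma with Benjamini-Hochberg adjusted p = 0.314).
The summed TPM of 12 T cell markers moved with Thy1, at 105.6 and 120.8 in B16F10 Aoah tumours, against 23.3 and 10.7 in Vector tumours, with none of the 12 at 0 in any library. Of these markers Cd8a and Cd8b1, the chains of the CD8 co-receptor, rose by limma at log2 differences of 3.25 and 2.76 (Benjamini-Hochberg adjusted p = 0.0286 and 0.0384). Summed macrophage and monocyte markers also moved with Thy1, at 1194 and 1123 TPM in Aoah tumours, against 733.7 and 667.4 TPM in Vector tumours. Of these 12 markers 10 had a log2 difference above 0, with a median of 0.41, and none passed; C1qa, a chain of complement C1q, was at 1.14 (limma, Benjamini-Hochberg adjusted p = 0.0620). Without Vector tumour 2 the median was 0.20. In B16mhgp100 the T cell sum lay between 30.91 and 39.66 TPM in Aoah tumours and between 26.91 and 47.8 TPM in Vector tumours. There the library labelled Aoah 4, highest in Thy1, had the lowest T cell sum of the Aoah group, at 30.91 TPM. The part of either cell type in the Thy1 value was not tested.

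The median log2 difference of the 9 genes tested in B16F10 was -0.70, against 0.02 over all genes tested, of which 48.4% were below 0. The Aoah effect was then compared between the models in 1 fit of all 12 tumours, as the effect in B16mhgp100 minus that in B16F10. The difference was 2.80 for Dcn, 2.14 for Postn, 2.05 for Lum and 1.30 for Fn1. It was 1.01 for Pdgfra, 0.98 for Fap, 0.48 for Sparc, 0.35 for Thy1, -0.02 for Tnc and -0.22 for Thbs1. None passed (limma, Benjamini-Hochberg adjusted p from 0.849 to 1.00), where 5 of 16556 genes did, 0.0302%, so a difference between the models in the Aoah effect was not shown for any of the 10 genes. For Postn the 95% interval ran from -0.32 to 4.61. Median-of-ratios scaling turned the sign for Tnc, to 0.23, and for Thbs1, to 0.03.

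Between the models, Sparc was higher in B16mhgp100 than in B16F10 in Aoah tumours, at 1360 ± 333 TPM in B16mhgp100 Aoah tumours and 457 ± 96.5 TPM in B16F10 Aoah tumours (SD, n = 4 and 2). On the log2 scale the difference was 1.56 with an SE of 0.24 and a 95% interval of 1.02 to 2.09, a 2.94-fold difference (limma, Benjamini-Hochberg adjusted p = 0.00730). Sparc (ENSMUSG00000018593) was the 1 of 10 genes that passed, where 612 of 16556 genes, 3.7%, did so in either direction, and 267, 1.61%, were higher in B16mhgp100. The number of genes passing was 3448 without the library labelled Aoah 4, and 77 or 79 without B16F10 Aoah tumour 1 or 2. The call was lost without B16F10 Aoah tumour 1 (adjusted p = 0.0547 by limma, log2 difference 1.77) or 2 (adjusted p = 0.133, log2 difference 1.34). It held without the library labelled Aoah 4 (adjusted p = 0.00132 by limma).

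In Vector tumours Sparc stood at 1288 ± 223 TPM in B16mhgp100 Vector tumours and 603 ± 54.2 TPM in B16F10 Vector tumours (SD, n = 4 and 2). The groups did not overlap, which held for 33.1% of all genes tested and for none of the other 9. This gave a log2 difference of 1.08 (SE 0.24), a 2.12-fold difference that narrowly missed the threshold (limma, Benjamini-Hochberg adjusted p = 0.0518). In this comparison 312 of 16556 genes passed, 1.88%, and none of the 10 genes, against 2113 genes without the library labelled Aoah 4 and 115 without B16F10 Vector tumour 2. Sparc passed without the library labelled Aoah 4 (adjusted p = 0.00901 by limma) and without B16mhgp100 Aoah tumour 2 (adjusted p = 0.0382), which enter this contrast only through the shared estimate of the spread. The Aoah and Vector comparisons use different tumours, but they share that estimate.

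The other genes were less regular between the models. In Aoah tumours all 10 log2 differences were above 0, with a median of 1.16, against -0.03 over all genes tested, of which 52.7% were below 0. When 1 tumour was left out, the Tnc difference fell to -0.12 at the lowest. Dcn was at 2.56 (SE 1.35), Lum at 2.20 (SE 0.95), Postn at 2.00 (SE 0.79), Pdgfra at 1.23 (SE 0.80), Fn1 at 1.09 (SE 0.63) and Fap at 1.05 (SE 0.40). Thbs1 was at 0.84 (SE 0.60), Tnc at 0.51 (SE 1.03) and Thy1 at 0.50 (SE 0.69).
Besides Sparc, Postn and Fap did not overlap between the models in Aoah tumours, where 30.8% of all genes tested did not, 11.9% with B16mhgp100 higher. For Fap this rested on values near the filter of 1 TPM, at least 1.11 TPM in B16mhgp100 and at most 0.74 TPM in B16F10. Fn1 passed without the library labelled Aoah 4 (log2 difference 1.59, limma with Benjamini-Hochberg adjusted p = 0.0338). In that fit many more of all genes passed than with every tumour kept, as given for Sparc above. When 1 tumour was left out, the log2 difference ranged from 1.70 to 3.08 for Lum and from 1.79 to 3.78 for Dcn. Both were largest without B16mhgp100 Aoah tumour 3, and Dcn was smallest without the library labelled Aoah 4. Lum and Dcn each passed in a fit with 1 tumour left out, but not with every tumour kept. The Thy1 difference was 0.07 without the library labelled Aoah 4.

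In Vector tumours Thbs1 had a log2 difference of 1.06 between the models (SE 0.60, limma with Benjamini-Hochberg adjusted p = 0.538), and Tnc one of 0.52 (SE 1.03). The remaining 7 genes lay between -0.24 for Dcn and 0.22 for Pdgfra, and Fap and Thy1, at 0.07 and 0.14, turned to -0.01 under median-of-ratios scaling. The median over the 10 genes was 0.15, against 0.11 over all genes tested. Postn illustrates the pattern of its levels over the 4 groups, at 24.1 ± 14.9 TPM in B16mhgp100 Aoah tumours, 38.3 ± 27.1 TPM in B16mhgp100 Vector tumours, 4.66 ± 2.47 TPM in B16F10 Aoah tumours and 36.2 ± 21.0 TPM in B16F10 Vector tumours (SD, n = 4, 4, 2 and 2). Its means in the first, second and last of these groups differed by less than their spread, and B16F10 Aoah tumours were lowest.

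**Figure D3:**
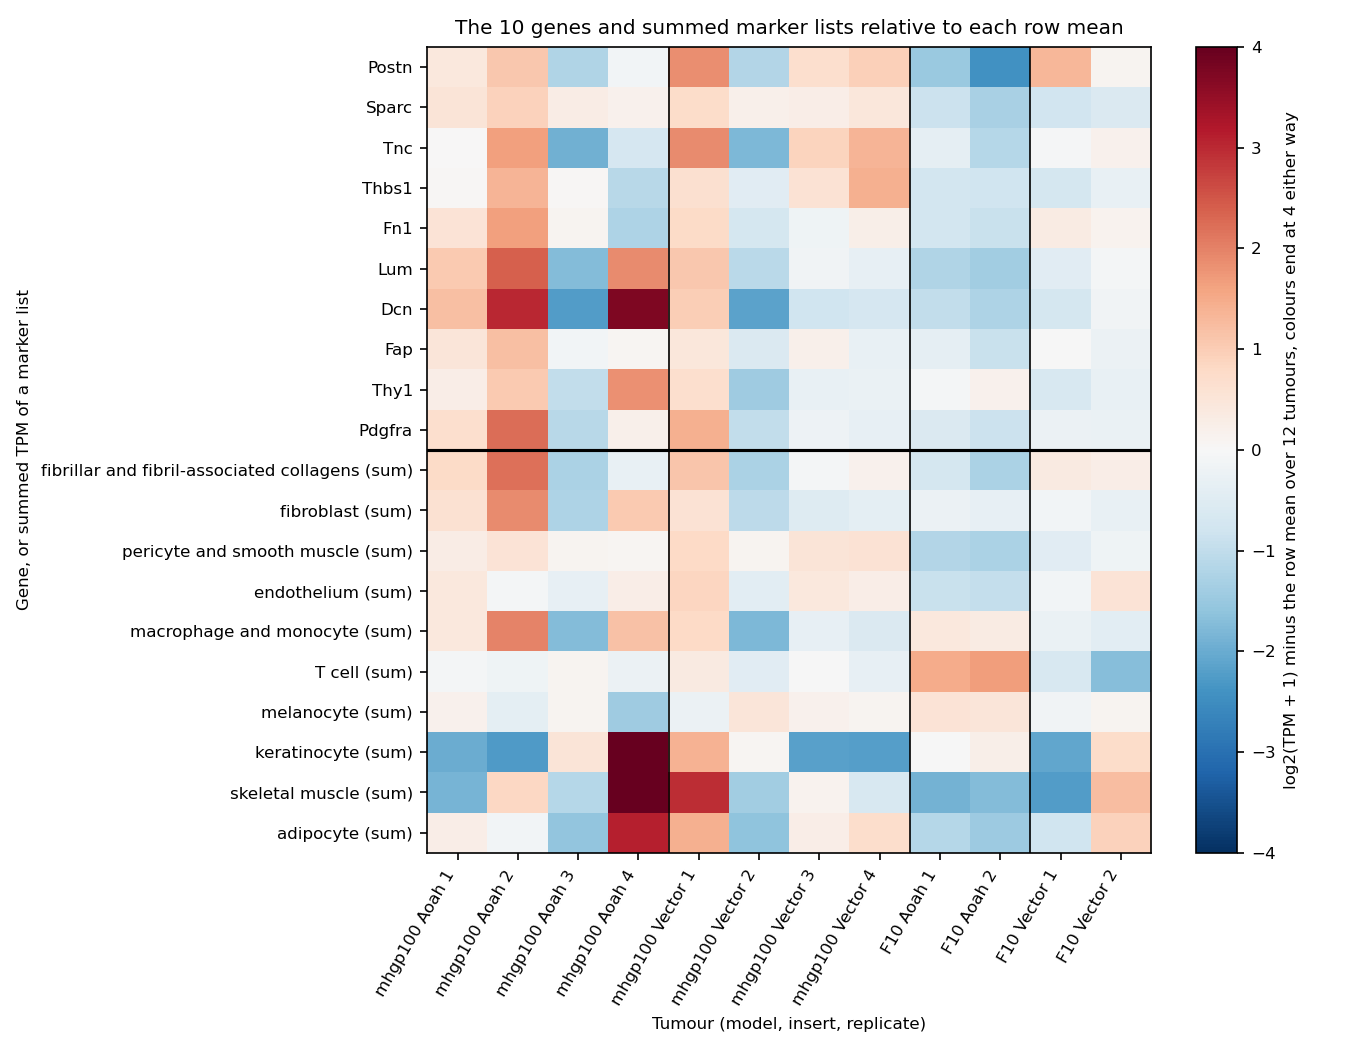
Log2(TPM + 1) of each gene, and of the summed TPM of marker lists, minus the row mean over 12 tumours; columns are tumours with Aoah left of Vector in each model, and colours end at 4 either way. B16mhgp100 Aoah tumour 2 is high and Aoah tumour 3 and Vector tumour 2 are low for most of the 10 genes, collagens, fibroblast and macrophage markers, and the library labelled Aoah 4 is high for keratinocyte, muscle and adipocyte markers.

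Other matrix genes and markers of stromal cells were read from lists chosen with earlier results of these data known. Of 17 fibroblast markers other than the 10 genes, 16 were tested in B16mhgp100 and 14 in B16F10, and none passed in either. Their median log2 difference was 0.96 in B16mhgp100, with 13 of 16 above 0, and -0.02 in B16F10, with 7 of 14 above 0. Their summed TPM was 262.3, 642.3, 72.3 and 360.3 in B16mhgp100 Aoah tumours, against 259.8, 83.5, 119.1 and 131.0 in Vector tumours. Aoah tumours 2 and 3 thus held both the highest and the lowest sum, as they did for Lum and Pdgfra. Clec3b and Islr had the smallest p in B16mhgp100, with log2 differences of 2.94 (SE 1.09) and 1.28 (SE 0.52). An alternative chosen after seeing the data left out the library labelled Aoah 4, which gave 2.34 for Clec3b, 1.16 for Islr and 0.74 for the median of the list, as differences of group means with no test. In B16F10 the summed TPM was 147.6 and 137.0 TPM in Aoah tumours, against 158.5 and 141.2 TPM in Vector tumours.

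The library labelled Aoah 4, which had the highest Dcn and Thy1, also held 5926 TPM of summed keratinocyte markers, against at most 67.9 TPM elsewhere. It held 5440 TPM of skeletal muscle markers, against at most 784.8 TPM elsewhere, and 683.9 TPM of adipocyte markers, against at most 209.7 TPM. Summed macrophage and monocyte markers were 1183, 3516, 265 and 2019 TPM in B16mhgp100 Aoah tumours, against 1541, 256.8, 706.5 and 590.6 TPM in Vector tumours. All 12 of these markers had a log2 difference above 0, with a median of 0.69 (0.61 without the library labelled Aoah 4, with 11 of 12 above 0), and none passed. The part of these cells in the values of the 10 genes was not tested. Without the library labelled Aoah 4 the Dcn difference in B16mhgp100 was 1.33 and the Thy1 difference 0.44, as given above.

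All 12 fibrillar and fibril-associated collagen genes had a log2 difference below 0 in B16F10, with a median of -1.18, and none passed the adjusted threshold with limma. Col6a3, a chain of the microfibrillar collagen VI, had 8.80 and 5.78 TPM in B16F10 Aoah tumours, against 31.7 and 39.3 TPM in Vector tumours (log2 difference -2.16, limma with Benjamini-Hochberg adjusted p = 0.0585). Col6a1 was at -1.54 (limma with Benjamini-Hochberg adjusted p = 0.0976). The summed TPM of the 12 genes was 299.8 and 201.5 in B16F10 Aoah tumours, against 619.7 and 587.8 in Vector tumours. In B16mhgp100 the median was 0.13, with 9 of 12 above 0, and 0.31, with all 12 above 0, without the library labelled Aoah 4.

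Markers of vessels were also lower in value in B16F10 Aoah tumours. All 10 endothelial markers had a log2 difference below 0 there, with a median of -1.04, and 8 of 9 pericyte and smooth muscle markers tested did, with a median of -0.71. None of either list passed. Pecam1, an adhesion molecule of endothelial junctions, was at -1.57 (limma with Benjamini-Hochberg adjusted p = 0.0996), and Rgs5, a marker of pericytes, at -1.58 (adjusted p = 0.0856). The summed endothelial markers lay between 69.6 and 72.2 TPM in Aoah tumours and between 125.1 and 198.5 TPM in Vector tumours. Summed pericyte and smooth muscle markers lay between 79.3 and 83.4 TPM in Aoah tumours and between 138.1 and 169.9 TPM in Vector tumours. Both sums were lower in both Aoah tumours, like Postn and Fn1, an order that 22.6% of all genes tested also had. Without Vector tumour 2 the endothelial median was -0.87, with all 10 below 0, and the pericyte and smooth muscle median was -0.56, with 3 of 9 above 0.
Markers of fat and muscle also had lower medians in B16F10 Aoah tumours, and these rested largely on Vector tumour 2. All 3 adipocyte markers tested were below 0, with a median of -1.33, as were all 6 skeletal muscle markers tested, with a median of -0.87, and none passed. Summed adipocyte markers were 34.8 and 27.8 TPM in Aoah tumours, against 44.8 and 148 TPM in Vector tumours. Summed skeletal muscle markers were 26.1 and 29.5 TPM in Aoah tumours, against 20.5 and 236 TPM in Vector tumours, so the groups overlapped. Without Vector tumour 2 the adipocyte median was -0.58 and the muscle median 1.03. The part of these cell types in the Postn and Fn1 values was not tested.

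Other matrix lists lay nearer to the median of all genes in B16F10. The median log2 difference was -0.11 for 14 other matricellular genes tested, -0.47 for 4 other small leucine-rich proteoglycan genes, -0.20 for 14 elastic fibre genes and -0.31 for 12 basement membrane and large proteoglycan genes. It was -0.08 for 15 matrix receptor genes, 0.02 for 16 genes of TGF-beta and PDGF signalling, and -0.01 for 25 proteases, inhibitors and crosslinkers. None of these genes passed in B16F10 or in B16mhgp100. Of the small leucine-rich proteoglycan genes, Aspn, which encodes asporin, was at -0.97 and Bgn, which encodes biglycan, at -0.61 in B16F10. Of 10 keratinocyte markers 4 were tested in B16F10, with a median of 1.45 and 3 above 0. Of these the keratin gene Krt10 and Lor, the gene of the cornified-layer protein loricrin, rose at log2 differences of 3.11 and 2.57 (limma, Benjamini-Hochberg adjusted p = 0.0384 and 0.0461). Their calls, like all others in B16F10, were lost when any 1 tumour was left out. Krt5 and Sfn had lower means in Aoah tumours, at 0.665 and 5.37 TPM, against 4.42 and 13.2 TPM in Vector tumours. The summed keratinocyte markers were 24.8 and 29.7 TPM in Aoah tumours, against 5.24 and 42.7 TPM in Vector tumours, so the groups overlapped. No muscle, adipocyte or platelet marker passed in either model.
Melanocyte markers, 10 genes, had a median of -0.67 in B16mhgp100 and 0.46 in B16F10, and none passed. Their summed TPM in B16mhgp100 was 24412, 16483, 23190 and 8116 in Aoah tumours 1 to 4, against 18206, 29980, 24443 and 23149 in Vector tumours 1 to 4. The library labelled Aoah 4 was by far the lowest, and without it the median was -0.19. In B16F10 the summed TPM was 31469.3 and 30427.5 in Aoah tumours, against 19736.3 and 23120.9 in Vector tumours, so the groups did not overlap. There 8 of the 10 markers had a log2 difference above 0. The part of melanoma cells in the values of the 10 genes was not tested.

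**Figure D4:**
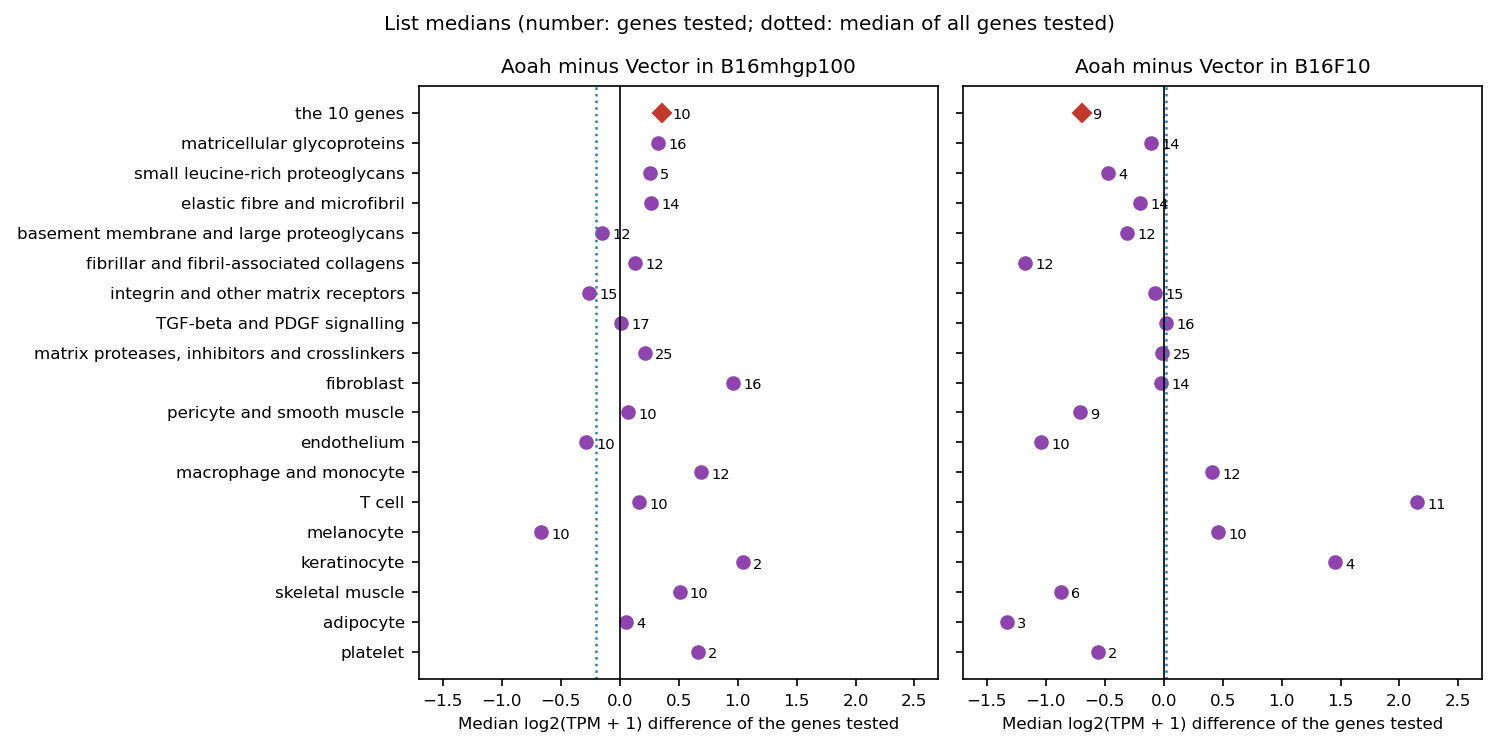
Median log2(TPM + 1) difference of Aoah minus Vector tumours for the 10 genes and each list, with the number of genes tested beside each point and the median of all genes as a dotted line. In B16F10 adipocyte markers at -1.33, collagens at -1.18, endothelial markers at -1.04, muscle markers at -0.87, pericyte and smooth muscle markers at -0.71 and the 9 of the 10 genes that were tested at -0.70 lie to the left, and keratinocyte markers at 1.45 and T cell markers at 2.15 to the right.

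Between the models some genes of these lists passed. Of 11 T cell markers tested 6 were lower in B16mhgp100 Aoah tumours than in B16F10 Aoah tumours, among them Cd8a at -2.17, Cd8b1 at -1.98, Cd3e at -1.90 and Cd2 at -1.84 (limma, Benjamini-Hochberg adjusted p = 0.00622, 0.00381, 0.0193 and 0.00846). Of 10 melanocyte markers Trpm1, a cation channel gene, was lower there at -2.0 (limma, Benjamini-Hochberg adjusted p = 0.0264), and at -1.67 without the library labelled Aoah 4. Pcolce, which encodes an enhancer of procollagen processing, was higher in B16mhgp100 in both comparisons, like Sparc by value, with log2 differences of 1.37 in Aoah tumours and 1.42 in Vector tumours (limma, Benjamini-Hochberg adjusted p = 0.00846 and 0.00951). Sdc4, a syndecan that binds fibronectin together with integrins, was higher in B16mhgp100 Aoah tumours at 1.11 (adjusted p = 0.0153 by limma). Smoc1, a matricellular relative of Sparc, was lower in both, at -1.47 in Aoah tumours and -1.51 in Vector tumours (limma, Benjamini-Hochberg adjusted p = 0.00672 and 0.00781), at means of 0.143 and 0.210 TPM in B16mhgp100 Aoah and Vector tumours and 2.16 and 2.48 TPM in B16F10 Aoah and Vector tumours. Fbln5, an elastic fibre protein, was lower in B16mhgp100 Aoah tumours at -2.14, and Tgfb1, a growth factor that induces matrix genes in fibroblasts, at -1.75 (limma, Benjamini-Hochberg adjusted p = 0.0456 and 0.0274). As differences of group means without the library labelled Aoah 4, they were at -1.65 and -1.54. The number of genes passing between the models depended on single tumours, as given for Sparc above.

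The genes most like each of the 10 in their log2(TPM + 1) pattern were read among 10136 genes with a mean of at least 5 TPM. These correlations are descriptions over 12 tumours, which share groups and models, and over the 11 without the library labelled Aoah 4. Sparc was closest to Hmga2, which encodes a chromatin protein, with Pearson's r of 0.978 over 12 tumours and 0.985 over 11. Dcn was closest to Tmem45a over 12 (0.983) and over 11 to Dpt, the gene of the matrix protein dermatopontin (0.994). Lum was closest to Gpx3 over 12 (0.975) and to Fbn1, the fibrillin-1 gene, over 11 (0.978). Fn1 was closest to the collagen gene Col5a1 over 12 (0.940) and to Ednrb over 11 (0.943). Fap was closest to BC028528 over 12 (0.935), followed by the collagen gene Col14a1 (0.930), and over 11 to Slc43a3 (0.958).

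Tnc kept the same nearest gene, Entpd1, at 0.961 over 12 and over 11 tumours. Pdgfra was closest to Serpina3n over 12 (0.968) and to Fxyd6 over 11 (0.991). Thy1 was closest to Stab1, a scavenger receptor of macrophages and sinusoidal endothelium, over 12 (0.974) and to Sqor over 11 (0.976). Thbs1 was closest to Slc30a1 over 12 (0.922), with Ccn2, a further matricellular gene, at 0.908, and to Casp4 over 11 (0.936). Postn was closest to Emp1 over 12 tumours (0.899), the lowest of the 10 nearest-gene values there, and to the ribosomal gene Rpl10a over 11 (0.954), where Thbs1 and Fn1 had lower ones. The nearest gene thus changed with 1 library for 8 of the 10 genes, and stayed for Sparc and Tnc.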

How the data were processed

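Bulk polyA RNA of 12 tumours was measured by paired-end RNA-seq, per the labels. The authors deposited expression as log2(TPM + 1) per gene symbol, which was back-transformed. The back-transformed TPM summed to 992185 to 996590 per library. The deposited tables of the authors' own comparisons hold a mean normalised count per gene (a signal), a log2 fold change, its standard error, a test score, a p-value and its adjusted form. Their sign matched Aoah minus Vector. The submitters' processing notes name RSEM, DESeq2 and mm39 without versions. Since TPM holds no depth, the reads behind a value are unknown and no count model was run. RSEM shares ambiguous reads between similar genes, and the kit is not stated to keep strand.

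Log2(TPM + 1) was tested with limma 3.58.1 in R 4.3.3 with an intensity trend, 2-sided, with Benjamini-Hochberg adjustment over all genes kept, at an adjusted p of 0.05. The filter kept genes that reached 1 TPM in as many libraries as the smallest group holds. These fold changes understate changes of low genes. Each model was fitted alone, and the comparisons between models used all 12 libraries with 4 group means. The fits were tested on simulated data with a within-group spread capped below that of most of the 10 genes in B16mhgp100. That test therefore does not show how often differences of such genes would be found. Groups come from sample titles. No 2 libraries were copies of each other. The same replicate numbers in the labels were not taken as pairs. Tests were repeated with a pseudocount of 0.1, without the filter, with median-of-ratios scaling, with a replicate block, without the trend and without each library. List medians without 1 library are differences of group means, chosen after seeing the data. All 10 genes were named, and of each list up to 4 genes past the threshold or, where none passed, the 2 with the smallest p, of which some are given. Likeness is the highest Pearson r of log2 values, predicted gene models left out. The genes and lists were chosen with earlier results of these data known. A repertoire table was not used here.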

Additional observations from a re-analysis of the deposited data

How the results depend on the processing

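In each comparison most of the results for the 10 genes kept their direction and their side of the threshold. Of 130 values in B16mhgp100 5 changed sign, all when 1 tumour was left out, with ranges of -0.088 to 0.17 for Sparc, -0.22 to 0.74 for Fn1 and -0.051 to 1.06 for Pdgfra. In B16F10 none changed sign. The number of genes called was 0 in B16mhgp100, against 1 with a pseudocount of 0.1 and 1 without the trend, and 0 to 2 when 1 tumour was left out (2 without Aoah 4). In B16F10 it was 50, against 32 with a pseudocount of 0.1, 0 without the filter, 121 with median-of-ratios scaling, 16 without the trend and 0 when any 1 tumour was left out. For the difference of the Aoah effect it was 5, against 46 without the filter, 9 with scaling, 11 without the trend and 2 to 45 when 1 tumour was left out (45 without B16mhgp100 Aoah 4, 2 without B16mhgp100 Vector 1 or 3). Between the models it was 312 in Vector tumours, against 498 with scaling and 115 to 2113 when 1 was left out, and 612 in Aoah tumours, against 1409 with scaling and 77 to 3448 when 1 was left out. An alternative chosen after seeing the data left out both B16mhgp100 Aoah 4 and B16F10 Vector 2. It gave 441 genes for the difference of the effect, 853 in Vector tumours and 4886 in Aoah tumours. The cause was not tested. Where a B16F10 group was left with 1 tumour, that tumour was assumed to vary like the other groups.

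With the replicate number as a block, 0 genes passed in B16mhgp100, 765 in B16F10 (with 1 residual degree of freedom), 3 for the difference, 82 between the models in Vector tumours and 76 in Aoah tumours. Same-numbered tumours did not deviate together (r between -0.24 and 0.07 in B16mhgp100 and -0.08 in B16F10). In neither model did any Aoah tumour correlate best with the Vector tumour of its own number, so the numbers were not used as pairs. With 2 tumours a group the deviations mirror each other, so the B16F10 r is a single value. Under the block Postn and Fn1 passed in B16F10, and in Vector tumours Postn, Fn1 and Dcn turned to 0.093, 0.20 and 0.14.

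For the difference of the effect Tnc turned to 0.00073 with a pseudocount of 0.1, to 0.23 with scaling and to 0.017 without both libraries, and ranged from -0.81 to 0.55 when 1 tumour was left out. Thbs1 turned to 0.030 with scaling and ranged from -0.64 to 0.19. Thy1 turned to -0.26 without both libraries and ranged from -0.076 to 0.86. Between the models in Vector tumours Fap turned to -0.0059 and Thy1 to -0.0069 with scaling, and without both libraries Dcn turned to 0.040 and Fap to -0.048. Leaving out 1 tumour there gave -0.25 to 0.47 for Lum, -0.10 to 0.24 for Fap, -0.19 to 0.50 for Thy1, -0.26 to 0.54 for Pdgfra, -0.75 to 0.47 for Postn, -0.46 to 0.030 for Fn1 and -0.79 to 0.25 for Dcn. In Aoah tumours it gave -0.12 to 1.07 for Tnc. With 2 B16F10 tumours a group, and no read depth, B16F10 results are the least certain.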
